A study of Mus musculus with 21 samples.

Results

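Asgr1, Pon1 and Fabp1 are genes best known from the liver. Their transcript levels were lower in lungs of mice given either of 2 components of e-cigarette liquids, except for Fabp1 at the lower dose of propylene glycol. They are 3 of the 23238 gene symbols counted in these lungs, and all 3 were among the 14727 symbols with enough counts to be tested. They were chosen because their differences from the control were among the largest falls after propylene glycol (PG) or vitamin E acetate (VEA) in these same libraries. Their levels and differences are therefore given as a description, with no test. The 21 animals were C57BL/6 mice in 7 groups of 3. All animals received 50 µL into the trachea once a day for 14 days, were killed on day 15, and had the airways lavaged before lung tissue was taken. The groups were PG 826, PG 1100 and their saline control, and 10% ethanol as the control of VEA 3.12, VEA 6.25 and VEA 12.5. The doses are used as numbers only, because the labels give mg/kg and the series description gives mg/mL for the same numbers. The liquid in which VEA was given is not stated, so a VEA value is a difference from the ethanol animals, and age and sex are not given in the sources used here. RNA was measured by sequencing of transcript 3′ ends from whole lung tissue, 1 library per animal.

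Asgr1 encodes a subunit of the asialoglycoprotein receptor, a C-type lectin on hepatocytes that binds galactose-ended glycoproteins and takes them up from blood. Pon1 encodes paraoxonase, a lactonase and esterase that the liver secretes and that circulates on high-density lipoprotein (HDL). Fabp1 encodes the liver fatty acid-binding protein, a cytosolic carrier of long-chain fatty acids whose gene is a known target of the fatty acid receptor PPAR-alpha. Reads of the 3 genes come from separate loci. On GRCm38, Asgr1 lies on chromosome 11 at 70054085 to 70057894 (forward strand, 5 transcripts in GENCODE M21). Pon1 lies on chromosome 6 at 5168090 to 5193946 (reverse strand, 4 transcripts), and Fabp1 on the same chromosome at 71199827 to 71205023 (forward strand, 1 transcript). No annotated gene overlaps any of them.

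The windows around their starts are shown because Asgr1 and Pon1 have similar patterns over the 21 lungs and all 3 genes are best known from another organ. Each window runs from 250 bases before to 50 bases after the start in RefSeq, assembly GRCm38.p6, and is read 5′ to 3′ on the gene's strand. Capitals mark the matches found, on either strand, to 9 motifs: TTGCNNAA (C/EBP core), AGGTCA (nuclear receptor half-site), GTTAAT (HNF1 half-site), CAAAGTC (HNF4-type half-site), TGTTTAC (FOXA core), CAAGTG (NKX2-1 core), GCGTG (aryl hydrocarbon response core), CACGTG (E-box), and the glucocorticoid response element.
Asgr1, chr11:70053874-70054173, forward strand: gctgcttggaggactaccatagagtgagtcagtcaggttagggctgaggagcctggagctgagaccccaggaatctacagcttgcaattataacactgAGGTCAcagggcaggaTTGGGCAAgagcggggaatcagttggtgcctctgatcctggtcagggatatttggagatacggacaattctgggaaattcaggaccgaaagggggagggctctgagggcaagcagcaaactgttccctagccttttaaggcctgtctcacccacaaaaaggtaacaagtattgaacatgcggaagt
Pon1, chr6:5193897-5194196, reverse strand: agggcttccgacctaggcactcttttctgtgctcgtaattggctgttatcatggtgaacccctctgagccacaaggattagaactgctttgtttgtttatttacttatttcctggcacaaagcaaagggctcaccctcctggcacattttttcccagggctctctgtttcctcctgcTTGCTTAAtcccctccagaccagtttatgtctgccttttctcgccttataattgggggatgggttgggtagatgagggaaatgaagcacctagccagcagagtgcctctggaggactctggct
Fabp1, chr6:71199629-71199928, forward strand: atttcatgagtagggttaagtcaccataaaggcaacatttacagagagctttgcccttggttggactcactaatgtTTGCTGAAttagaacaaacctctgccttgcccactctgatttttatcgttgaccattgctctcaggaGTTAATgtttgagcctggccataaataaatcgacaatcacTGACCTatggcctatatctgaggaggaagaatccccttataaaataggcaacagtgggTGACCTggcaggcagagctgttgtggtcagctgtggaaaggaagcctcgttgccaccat
In each of these 3 windows the C/EBP core occurs 1 time, on the reverse strand of the Asgr1 window and on the forward strand of the others. Of 32841 RefSeq windows of the same length, 10.8% hold that core. The nuclear receptor half-site occurs 1 time in the Asgr1 window and 2 times in the Fabp1 window, and 16.3% of all windows hold it. The HNF1 half-site occurs 1 time, in the Fabp1 window, and in 7.10% of all windows. Matches to the other 6 motifs were not found in these 3 windows. Those motifs occur in 4.44% (HNF4-type), 3.65% (FOXA), 13.6% (NKX2-1), 32.4% (aryl hydrocarbon), 7.15% (E-box) and 0.475% (glucocorticoid element) of all windows. A second RefSeq start of Asgr1 has its window at chr11:70054105-70054404, which holds 1 match each to the HNF4-type half-site, the nuclear receptor half-site and the aryl hydrocarbon core. That second window holds 0 matches to the C/EBP core. The windows of Asgr1, Pon1 and Fabp1 have 51.7%, 49.3% and 45.0% G or C, where the median of all windows is 52.7%. They hold 4, 3 and 3 CpG dinucleotides, where the median is 7.

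The libraries held 8778028 to 11783151 counts and 14843 to 15992 detected genes. Animals of the same group differed by far more than sampling noise (chi-square over degrees of freedom at least 8.21 in each group), so none was counted as a duplicate. Lung identity was seen in the summed level of 11 alveolar type II markers, 28717 to 58624 CPM (counts per 1000000 counts of a library). In whole lung tissue, fewer cells of a type and less RNA per cell cannot be told apart. Levels below are CPM scaled by TMM, differences are log2 fold changes with the SE of the edgeR model, and animals are called by the number in their label.

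Asgr1 was low in every treated lung. It stood at 6.90, 4.61 and 6.87 CPM in the PG 826 lungs, at 1.84, 1.77 and 4.12 CPM in the PG 1100 lungs, and at 14.5, 26.3 and 32.2 CPM in the saline lungs. It stood at 19.0, 25.8 and 25.4 CPM in the ethanol lungs, at 6.85, 8.81 and 6.51 CPM after VEA 3.12, at 7.55, 3.56 and 5.66 CPM after VEA 6.25, and at 2.70, 2.84 and 3.11 CPM after VEA 12.5. No treated lung reached the level of any of the 6 control lungs. PG 826 lungs averaged 6.13 ± 1.32 CPM and PG 1100 lungs 2.58 ± 1.34 CPM, against 24.3 ± 9.01 CPM in saline lungs (SD, n = 3 each). These are 25.2% and 10.6% of the saline mean. The log2 fold change was -1.99 ± 0.32 for PG 826 and -3.24 ± 0.35 for PG 1100. The VEA means ran from 23.4 ± 3.81 CPM in ethanol lungs over 7.39 ± 1.24 CPM at 3.12 and 5.59 ± 1.998 CPM at 6.25 to 2.89 ± 0.210 CPM at 12.5. The last 3 are 31.6%, 23.9% and 12.3% of the ethanol mean, with log2 fold changes of -1.66 ± 0.32, -2.06 ± 0.32 and -3.01 ± 0.34. In order of their means, the groups ran saline, ethanol, VEA 3.12, PG 826, VEA 6.25, VEA 12.5 and PG 1100. Neighbours in that order overlapped in every case but 2, ethanol with VEA 3.12 and VEA 6.25 with VEA 12.5. Counts behind these values were 16 to 331 per library.

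Pon1 had the most counts of the 3, 127 to 1547 per library. It stood at 46.1, 52.4 and 51.0 CPM in the PG 826 lungs, at 32.5, 14.1 and 30.1 CPM in the PG 1100 lungs, and at 81.5, 128.0 and 149.0 CPM in the saline lungs. It stood at 107.7, 167.1 and 139.2 CPM in the ethanol lungs, at 32.2, 50.7 and 37.2 CPM after VEA 3.12, at 50.7, 23.6 and 36.7 CPM after VEA 6.25, and at 29.9, 23.5 and 23.8 CPM after VEA 12.5. As for Asgr1, no treated lung overlapped a control lung. PG 826 lungs averaged 49.8 ± 3.28 CPM and PG 1100 lungs 25.5 ± 10.0 CPM, against 119 ± 34.5 CPM in saline lungs, with log2 fold changes of -1.26 ± 0.30 and -2.22 ± 0.31. Over the VEA series the means were 138 ± 29.7 CPM in ethanol lungs, 40.02 ± 9.61 CPM at 3.12, 37.0 ± 13.6 CPM at 6.25 and 25.7 ± 3.63 CPM at 12.5. The log2 fold changes from ethanol were -1.79 ± 0.31, -1.90 ± 0.31 and -2.42 ± 0.31. Most of the Pon1 difference was already present at the lowest VEA dose, 29.0% of the ethanol mean against 18.7% at the highest. The same held for Asgr1 (31.6% against 12.3%) and Fabp1 (38.3% against 25.4%). In the order of means (ethanol, saline, PG 826, VEA 3.12, VEA 6.25, VEA 12.5, PG 1100) the only gap between neighbours was that between saline and PG 826.

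Fabp1 overlapped its control at the lower PG dose. It stood at 20.4, 19.7 and 17.7 CPM in the PG 826 lungs, at 8.503, 0.886 and 4.90 CPM in the PG 1100 lungs, and at 11.1, 25.7 and 26.3 CPM in the saline lungs. The PG 826 values lay inside the range of the saline values, and animal 28 of the PG 1100 group had 8 counts in all. PG 826 lungs averaged 19.2 ± 1.38 CPM and PG 1100 lungs 4.76 ± 3.81 CPM, against 21.004 ± 8.62 CPM in saline lungs, with log2 fold changes of -0.12 ± 0.41 and -2.12 ± 0.45. In the VEA series Fabp1 stood at 19.8, 17.9 and 32.3 CPM in the ethanol lungs, at 9.70, 7.85 and 9.26 CPM after VEA 3.12, at 9.17, 7.75 and 14.9 CPM after VEA 6.25, and at 5.48, 5.61 and 6.65 CPM after VEA 12.5. All 9 VEA lungs lay below all 3 ethanol lungs. The means were 23.3 ± 7.80 CPM in ethanol lungs, 8.94 ± 0.971 CPM at 3.12, 10.6 ± 3.81 CPM at 6.25 and 5.91 ± 0.642 CPM at 12.5. The log2 fold changes from ethanol were -1.38 ± 0.42, -1.14 ± 0.42 and -1.98 ± 0.43. In the order of means (ethanol, saline, PG 826, VEA 6.25, VEA 3.12, VEA 12.5, PG 1100) neighbours were apart at PG 826 with VEA 6.25 and at VEA 3.12 with VEA 12.5.

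**Figure D1:**
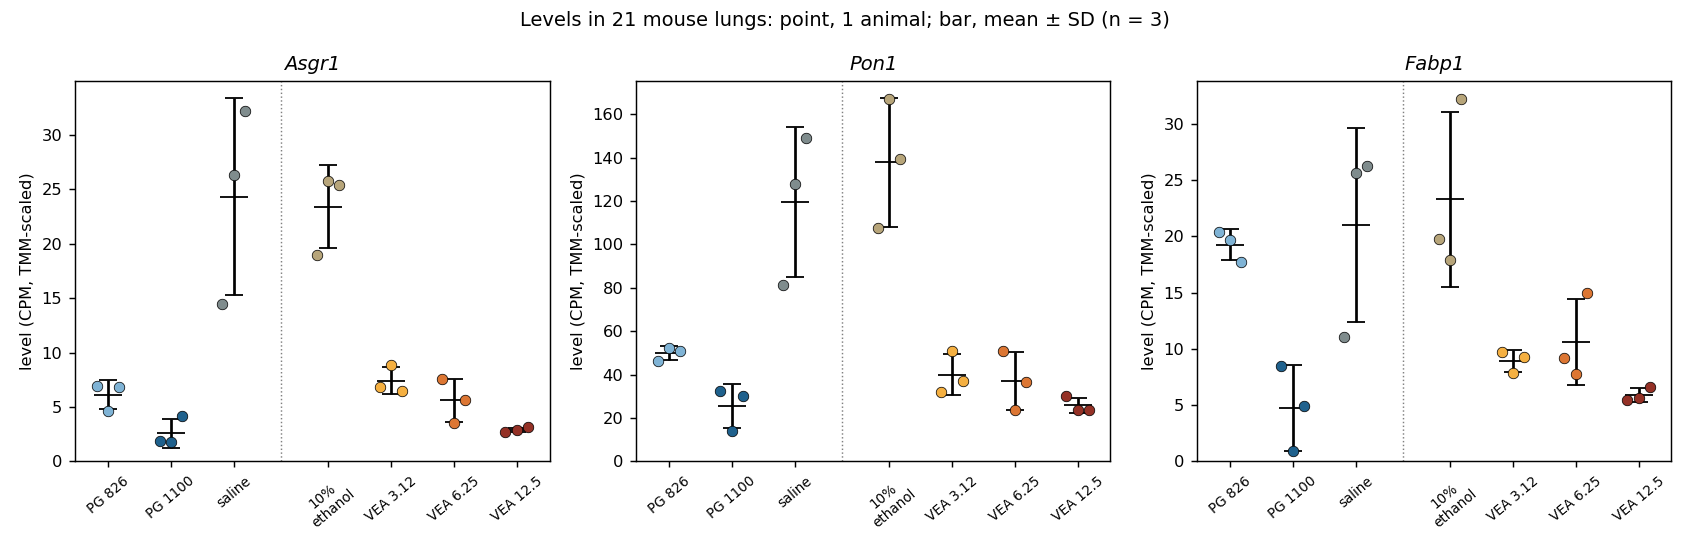
Level of Asgr1, Pon1 and Fabp1 in each of 21 lungs (y axis, CPM scaled by TMM; x axis, group; point, 1 animal; bar, mean ± SD, n = 3). The PG 826 lungs lie below the saline lungs for Asgr1 and Pon1, and among them for Fabp1 at 17.7 to 20.4 CPM.

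Against their own control, the treated lungs lay wholly below the control lungs in 5 of 5 comparisons for Asgr1, 5 of 5 for Pon1 and 4 of 5 for Fabp1. Of all genes tested, the share that lay wholly below in the same way was 6.67% for PG 826, 9.69% for PG 1100, 11.8% for VEA 3.12, 11.5% for VEA 6.25 and 14.8% for VEA 12.5. Since these contrasts chose the genes, nothing is read from that count. In the order of log2 fold changes among genes averaging 5 CPM or more in 1 of the groups, Asgr1 was number 5 from the lowest of 10850 for PG 826 and number 4 of 10947 for PG 1100. It was number 25 of 10994, 16 of 11012 and 5 of 11081 for the 3 VEA doses in rising order. Pon1 was number 31 for PG 826 and 12 for PG 1100, and 19, 23 and 14 for the VEA doses. Fabp1 was number 3446 for PG 826 and 14 for PG 1100, and 64, 149 and 22 for the VEA doses.

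Ethanol lungs overlapped saline lungs in all 3 genes, and saline 6 was the lowest of its group for each of them. Ethanol minus saline was -0.06 ± 0.30 for Asgr1, 0.21 ± 0.29 for Pon1 and 0.15 ± 0.41 for Fabp1 on the log2 scale. Between the highest and the lowest dose of each agent, the higher dose had the lower mean for all 3 genes. PG 1100 minus PG 826 was -1.25 ± 0.35 for Asgr1, -0.96 ± 0.31 for Pon1 and -1.996 ± 0.44 for Fabp1. VEA 12.5 minus VEA 3.12 was -1.35 ± 0.34 for Asgr1, -0.63 ± 0.31 for Pon1 and -0.60 ± 0.44 for Fabp1. In each of these 6 pairs the 3 lungs of the higher dose lay below the 3 of the lower dose, as did 10.5% of all genes for PG and 7.14% for VEA. The effect of VEA 12.5 minus that of PG 1100 was 0.23 ± 0.47 for Asgr1, -0.20 ± 0.43 for Pon1 and 0.14 ± 0.61 for Fabp1, all smaller than their SE. Without PG 1100 animal 30 the value for Asgr1 was 0.73, and without animal 27 that for Fabp1 was 0.89.

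**Figure D2:**
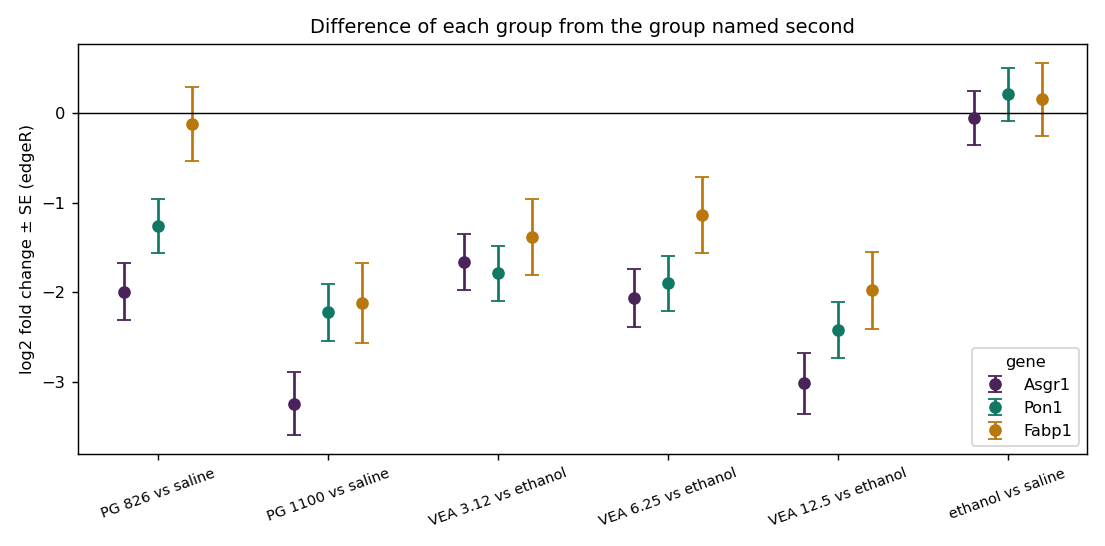
Log2 fold change ± SE of the edgeR model (y axis) of Asgr1, Pon1 and Fabp1 in 6 comparisons (x axis, first group against the group named second; n = 3 each). Fabp1 at PG 826 is the only treated value near 0, at -0.12, and the 3 values of ethanol against saline lie between -0.06 and 0.21.

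The PG 1100 values rest on animals that differ among themselves. Without animal 27 the Fabp1 difference from saline was -2.85, that from PG 826 was -2.73, and over all leave-one-out fits the first ran between -2.85 and -1.64. Without animal 30 the Asgr1 difference was -3.74, with a range of -3.74 to -2.98. Within their groups, the 3 genes spread by 0.42 (Asgr1), 0.41 (Pon1) and 0.70 (Fabp1) log2 units (residual SD over 21 libraries).

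Whether animals that were low in 1 of the genes for their group were also low in another was tested on the deviations from group means, which were not used to choose the genes. Asgr1 and Pon1 deviated together with r = 0.69 over 21 animals (permutation test within groups, 100000 permutations, two-sided p = 0.0261, adjusted over 3 pairs 0.0783). Spearman's rho was 0.64 (permutation p = 0.0244, adjusted 0.0731), and r was 0.64 without saline 6 and PG 1100 animal 30. For that last r, and its equivalents for the other pairs, the group means still included the animals left out. Pon1 and Fabp1 had r = 0.66 (permutation p = 0.0583, adjusted 0.0875) and rho = 0.41 (permutation p = 0.187, adjusted 0.242), with r = 0.44 without PG 1100 animal 28 and VEA 6.25 animal 64. Asgr1 and Fabp1 had r = 0.39 (permutation p = 0.379, adjusted 0.379) and rho = 0.36 (permutation p = 0.242, adjusted 0.242), with r = 0.24 without saline 6 and PG 1100 animal 30. None of the 3 pairs passed an adjusted threshold of 0.05 with all animals. The pair of Asgr1 and Pon1 did pass when PG 1100 animal 27 (r = 0.87, adjusted permutation p = 0.00771), 28 (r = 0.67, 0.0358) or 30 (r = 0.69, 0.0112) was left out. Those were 3 of 24 alternative settings, and in the other 21 this pair did not pass.

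Liver markers were near the limit of detection in these lungs. Of 32 hepatocyte markers, 26 averaged below 1 CPM over the 21 libraries. The 6 highest were Cyp2e1, an ethanol-metabolising cytochrome (7.28 CPM), Alb, albumin (2.34 CPM), Hpx, hemopexin (2.03 CPM), Ahsg, fetuin-A (1.58 CPM), Fgg, a fibrinogen chain (1.51 CPM), and Serpinc1, antithrombin (1.25 CPM). Alb had 0 counts in VEA 6.25 animal 65 and at most 9.22 CPM, in ethanol animal 12, and no marker was at 0 in all 21 libraries. The summed level of the 32 markers was 14.7 to 26.1 CPM after PG 826 and 17.0 to 34.7 CPM after PG 1100, against 18.6 to 32.1 CPM in saline lungs. It was 26.9 to 54.7 CPM in ethanol lungs, 10.7 to 46.8 CPM at VEA 3.12, 8.79 to 22.9 CPM at VEA 6.25 and 15.99 to 22.6 CPM at VEA 12.5. The PG sums overlapped saline, and the ethanol range lay above VEA 6.25 and VEA 12.5. The animal with the highest sum of its group also had the group's highest Asgr1 in PG 826 (animal 22), PG 1100 (30), saline (10) and VEA 3.12 (57). In the ethanol (12), VEA 6.25 (64) and VEA 12.5 (66) groups, it had the group's lowest Asgr1. The sum of saline animal 10 was 32.1 CPM with Cyp2e1 and 11.9 CPM without it, where saline animal 6 had 12.3 CPM.

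Of the 32 markers, 10 passed the count filter, and edgeR (Benjamini-Hochberg adjusted p below 0.05 over all genes) called none for PG 826, PG 1100, VEA 3.12 or VEA 12.5. Of all genes, edgeR called 0.136%, 7.31%, 5.51% and 9.71% in these comparisons. With 10 genes tested, no call is near those shares, and nothing is read from it. At an unadjusted p below 0.05 there were 0, 1, 2 and 2, DESeq2 called 0, 0, 0 and 1, and limma-voom called 0 in each. Of all 14727 genes, 1395, 2925, 2792 and 3233 had such an unadjusted p. For VEA 6.25, where 5.76% of all genes were called, edgeR called 1 of 10, Apoa1, the main protein of HDL. Apoa1 had 1 count over the VEA 6.25 lungs and 70 over the ethanol lungs. The ratio of ethanol to VEA 6.25 was 68.7 (95% counting interval 11.9 to 2751), and the call was lost under several alternatives, limma-voom among them. The median log2 fold change of the tested markers was -0.12 for PG 826, 0.24 for PG 1100, and -0.19, -0.52 and 0.07 for the VEA doses in rising order. The median of all genes lay between -0.01 and 0.01 in each of these comparisons. The part of liver markers in the levels of the 3 genes was not tested.

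**Figure D3:**
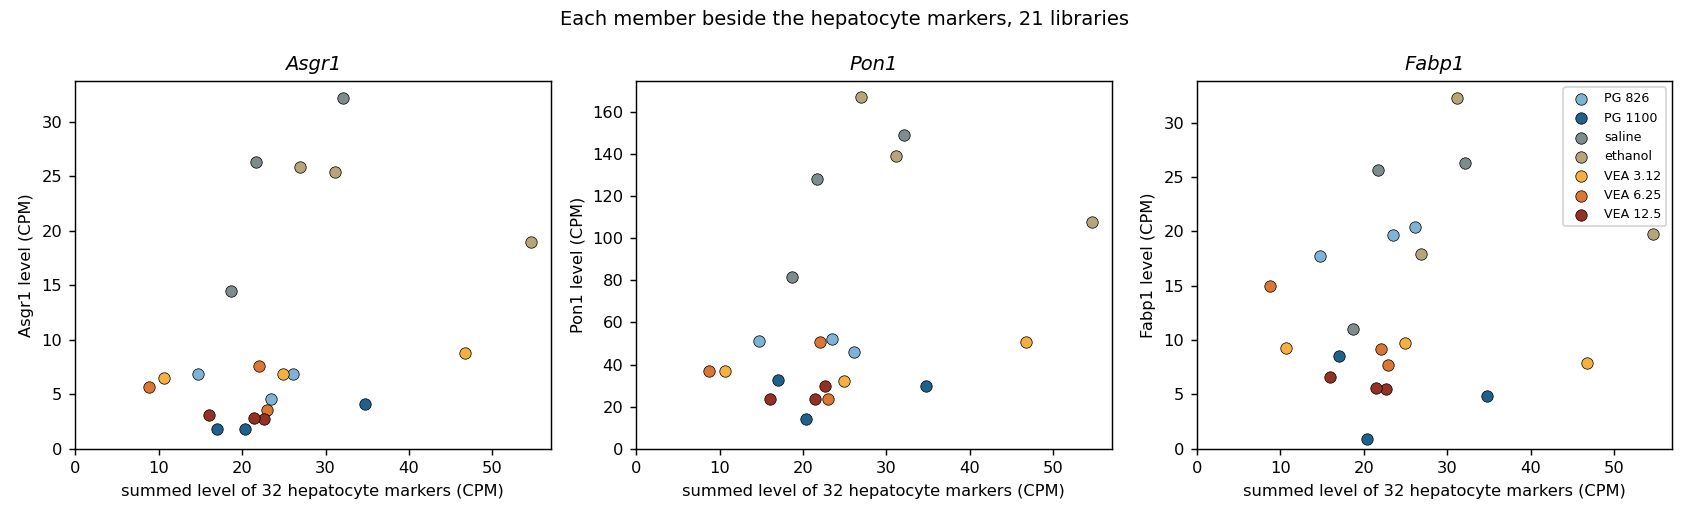
Level of Asgr1, Pon1 and Fabp1 (y axes, CPM) against the summed level of 32 hepatocyte markers (x axis, CPM) in each of 21 lungs, coloured by group. The highest sum is 54.7 CPM, in ethanol animal 12, and the highest Asgr1 level is 32.2 CPM, in saline animal 10.

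Relatives of Asgr1 include its partner and other lectins. Asgr2, the partner subunit of the asialoglycoprotein receptor, had 13 counts over the 3 PG 826 lungs and 6 over the PG 1100 lungs, against 6 over the saline lungs. It had 21 counts over the ethanol lungs and 49, 34 and 70 over the lungs of the rising VEA doses, and was not called in any of the 5 comparisons. Among 26 tested C-type lectin receptors other than Asgr1, edgeR called 8 higher and 3 lower for PG 1100, where 4.09% and 3.23% of all genes were called higher and lower. For VEA 3.12 it called 9 higher and 1 lower (3.42% and 2.09% of all genes). For VEA 6.25 it called 7 higher and 2 lower (3.51% and 2.25%), and for VEA 12.5 12 higher and 1 lower (5.48% and 4.23%). Without PG 1100 animal 28 the PG 1100 calls numbered 7 in all, against 11. The list's median log2 fold change was 0.42 for PG 1100 and 0.85, 0.63 and 0.93 for the VEA doses. Of 14 markers of monocytes and recruited macrophages, edgeR called 6 higher and 1 lower for PG 1100, 8, 8 and 10 higher for the rising VEA doses, and 1 lower for VEA 12.5. Their median log2 fold changes were 0.57 for PG 1100 and 0.94, 0.94 and 1.20 for the VEA doses, and their part in the lectin levels was not tested. Clec4n (dectin-2, a receptor for fungal mannans on myeloid cells) rose by 2.09 ± 0.20 after PG 1100 and by 2.16 ± 0.21, 2.20 ± 0.21 and 1.99 ± 0.20 after the VEA doses. Clec4e (Mincle, a receptor for glycolipids of microbes and dead cells) rose by 3.47 ± 0.53 after VEA 12.5, to 10.2 ± 1.39 CPM against 0.905 ± 0.228 CPM in ethanol lungs. Clec5a, a myeloid activating receptor, rose by 3.16 ± 0.41 after VEA 12.5 and by 1.92 ± 0.40 after PG 1100. The members that fell were Clec14a, a receptor of endothelium, in PG 1100 and all VEA groups (-1.02 to -0.52), Cd93 after PG 1100 (-0.58) and VEA 6.25 (-0.63), and Clec2d after PG 1100 (-0.93).

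Pon2, an intracellular paraoxonase, stood at 97.6 ± 8.18 CPM after PG 826 and 108 ± 12.5 CPM after PG 1100, against 96.7 ± 7.53 CPM in saline lungs. Its VEA log2 fold changes lay between -0.11 and 0.09, and it was not called in any comparison with a control. Pon3, an HDL-associated paraoxonase next to Pon1, stood at 62.0 ± 1.88 CPM after VEA 12.5 and 81.2 ± 4.46 CPM in ethanol lungs, a log2 fold change of -0.39 ± 0.15 that was not called by edgeR (adjusted p = 0.0934). Of 16 tested paraoxonase and HDL genes other than Pon1, edgeR called 3 higher and 0 lower for PG 1100 (4.09% and 3.23% of all genes). It called 2 higher and 0 lower for VEA 3.12 (3.42% and 2.09%), 2 higher and 1 lower for VEA 6.25 (3.51% and 2.25%), and 3 higher and 0 lower for VEA 12.5 (5.48% and 4.23%). Saa3, serum amyloid A3, an acute-phase apolipoprotein, rose by 2.50 ± 0.68 after PG 1100 and by 6.62 ± 0.73, 6.39 ± 0.73 and 7.48 ± 0.75 after the VEA doses. Clu, clusterin (apolipoprotein J), rose by 1.13 ± 0.15 after PG 1100 and by 0.93 ± 0.15, 0.71 ± 0.15 and 1.20 ± 0.15 after the VEA doses. The other calls were Apoe, apolipoprotein E, which rose by 0.72 ± 0.17 after PG 1100, Saa4 after VEA 12.5, and Apoa1, described with the liver markers. Saa4 had 84 counts over the VEA 12.5 lungs and 1 over the ethanol lungs, a ratio of 62.5 (95% counting interval 10.9 to 2497).

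Of the other fatty acid-binding proteins, only Fabp5, the epidermal form, was called. It stood at 439 ± 71.9, 417 ± 22.6 and 433 ± 40.2 CPM after the rising VEA doses, and at 210 ± 13.2 CPM in ethanol lungs. It rose after VEA 3.12 (1.07 ± 0.29, edgeR adjusted p = 0.0411) and VEA 12.5 (1.05 ± 0.29, adjusted p = 0.0297), and the VEA 6.25 difference was 0.99 ± 0.29 (adjusted p = 0.0564). Fabp3, the heart form, and Fabp4, the adipocyte form, were not called; their log2 fold changes were -0.87 to -0.65 and -1.59 to -0.64 over the 5 comparisons. Fabp2, the intestinal form, had 6, 0 and 17 counts over the PG 826, PG 1100 and saline lungs and 11, 1, 0 and 0 counts over the ethanol and rising VEA lungs, and did not pass the count filter. Of 7 tested lipid-binding proteins other than Fabp1, edgeR called 1 higher and 2 lower for VEA 12.5 (5.48% and 4.23% of all genes), with Rbp7, a carrier of retinol, among those that fell (-1.06 ± 0.33). It called 1 for VEA 3.12, Fabp5 (5.51% of all genes were called), and 0 for PG 1100 and VEA 6.25 (7.31% and 5.76%). In the last 2 comparisons 1 and 1 had an unadjusted p below 0.05, as did 2925 and 2749 of all 14727 genes, and DESeq2 called 0 and 1. Without VEA 12.5 animal 70, ethanol animal 13 or the 3 libraries with the fewest detected genes, the VEA 12.5 count was 0. The VEA 3.12 count was 0 without those 3 libraries, without any 1 of the ethanol animals 12, 13 and 14, and without VEA 3.12 animal 57 or 59.

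Of 23 tested PPAR-alpha targets other than Fabp1, edgeR called 1 higher and 1 lower for PG 1100, 2 and 1 for VEA 3.12, 1 and 1 for VEA 6.25, and 2 and 2 for VEA 12.5. Over all genes, 4.09% and 3.23% were called higher and lower for PG 1100, 3.42% and 2.09% for VEA 3.12, 3.51% and 2.25% for VEA 6.25, and 5.48% and 4.23% for VEA 12.5. Vnn1, a pantetheinase, rose by 2.11 ± 0.25, 1.70 ± 0.25 and 2.60 ± 0.25 after the rising VEA doses. Plin2, a lipid droplet coat protein, rose by 0.69 ± 0.15 after PG 1100, 0.50 ± 0.15 after VEA 3.12 and 0.63 ± 0.15 after VEA 12.5. The falls were in enzymes of fatty acid oxidation. Acaa1b fell by 0.99 after PG 1100, Acadm by 0.59 after VEA 3.12 and 0.69 after VEA 12.5, and Acaa2 by 0.52 after VEA 6.25 and 0.56 after VEA 12.5. Of 11 tested liver transcription factors, edgeR called 0 in all 5 comparisons, with 0, 2, 1, 0 and 1 at an unadjusted p below 0.05 in dose order, and DESeq2 and limma-voom called 0. Of all 14727 genes, 1395, 2925, 2792, 2749 and 3233 had such an unadjusted p in the same order. The 2 with the highest level were Foxa2, at 88.0 ± 0.544 CPM after VEA 12.5 and 84.3 ± 2.03 CPM in ethanol lungs, and Cebpa, at 60.6 ± 6.53 CPM after VEA 12.5 and 64.5 ± 0.951 CPM in ethanol lungs.

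For PG 826, where 0.0951% and 0.0407% of all genes were called higher and lower, edgeR called 0 members of the 6 lists above. At an unadjusted p below 0.05 there were 8 of 26 C-type lectins, 2 of 16 paraoxonase and HDL genes, 3 of 23 PPAR-alpha targets and 0 of the other lists. Of all 14727 genes, 1395 had such a p. DESeq2 called 1 C-type lectin.

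**Figure D4:**
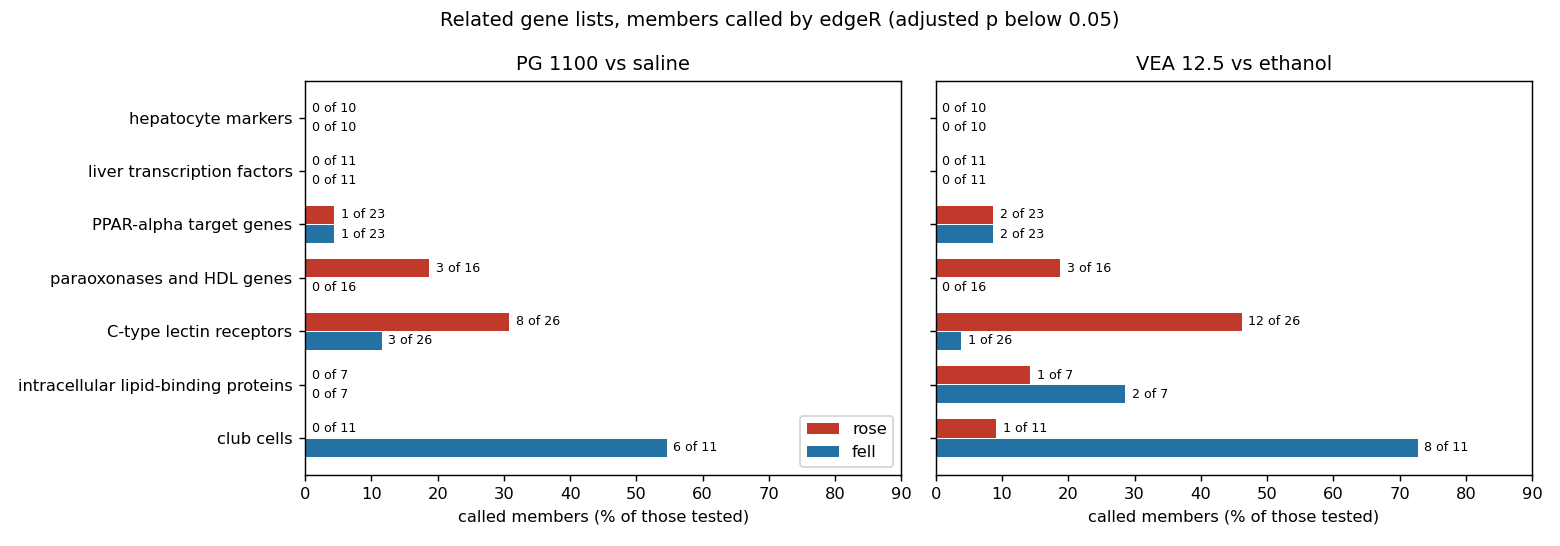
Share of tested members called higher (rose) or lower (fell) by edgeR (x axis, % of those tested) in 7 gene lists (y axis), for PG 1100 against saline and VEA 12.5 against ethanol. Calls that fell are most frequent among club cell genes, 6 of 11 and 8 of 11, and C-type lectins mostly rose, 8 of 26 and 12 of 26.

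Markers of airway club cells, secretory cells of the bronchioles, were mostly lower in treated lungs, as were Asgr1, Pon1 and markers of several other cells. Of 11 club cell markers, edgeR called 6 lower for PG 1100, 7 for VEA 3.12, 7 for VEA 6.25 and 8 for VEA 12.5, where 3.23%, 2.09%, 2.25% and 4.23% of all genes were called lower. It called 1, the mucin Muc5b, higher for VEA 12.5 (1.48 ± 0.46), where 5.48% of all genes were called higher. For PG 826 it called 0, with 7 lower at an unadjusted p below 0.05, and DESeq2 called 1. Of all 14727 genes, 1395 had such an unadjusted p in either direction. The median log2 fold change of the list was -0.39 for PG 826, -0.67 for PG 1100, and -0.99, -0.96 and -1.01 for the VEA doses. Its summed level was 48988 to 52589 CPM after PG 826 and 27888 to 41212 CPM after PG 1100, against 60345 to 80519 CPM in saline lungs. It was 58094 to 79582 CPM in ethanol lungs, 33762 to 39272 CPM at VEA 3.12, 35465 to 40834 CPM at VEA 6.25 and 31818 to 33771 CPM at VEA 12.5. Most of that sum was 1 gene, Scgb1a1, with 55112 ± 7581 CPM in saline lungs and 55739 ± 9179 CPM in ethanol lungs. Per unit of that sum, Asgr1 was 36.0% and 22.3% of the saline mean after PG 826 and PG 1100, and 59.0%, 43.9% and 26.0% of the ethanol mean after the VEA doses. Pon1 was 58.9% and 46.4% of saline, and 54.7%, 49.5% and 39.6% of ethanol. Fabp1 was 130.4% and 49.9% of saline, and 70.2%, 82.9% and 51.9% of ethanol. These ratios are a description, since the same comparisons chose the genes. Markers of other cells were called too. For PG 1100 and VEA 12.5, calls below the control were 4 and 7 of 13 ciliated cell markers, 9 and 5 of 15 endothelial markers, and 6 and 8 of 8 erythroid markers, where 3.23% and 4.23% of all genes were called lower. They were also 2 and 5 of 10 alveolar type I cell markers, 0 and 4 of 7 mesothelial markers, and 1 and 2 of 7 tested adipocyte markers. The adipocyte median log2 fold change was below that of the club cell list in each comparison. It was -0.43 for PG 826, -0.72 for PG 1100, and -1.23, -1.33 and -1.94 for the VEA doses. For PG 1100 and VEA 12.5, 6 and 4 of 11 type II cell markers were called higher, as were 4.09% and 5.48% of all genes. Called lower were 0 and 0 of them, with 0 and 0 lower at an unadjusted p below 0.05. The part of these cells in the levels of Asgr1, Pon1 and Fabp1 was not tested.

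The genes most like each of the 3 over the 21 libraries were found by Pearson's r of log2 CPM among the 10241 genes averaging 5 CPM or more, as a description, since all points share the same groups and libraries. Nearest to Asgr1 were Pon1 (r = 0.95), G0s2, an inhibitor of triglyceride breakdown (0.94), Gsta3, a glutathione transferase (0.93), Cox8b, a subunit of cytochrome oxidase (0.92), Crebrf (0.92) and Scgb1a1, secretoglobin of club cells (0.91). Nearest to Pon1 were Gsta3 (0.95), Asgr1 (0.95), G0s2 (0.94), Scgb1a1 (0.93), Cyp2f2, a cytochrome of club cells (0.92), and Slc16a11 (0.90). Fabp1 had a separate set: Hipk1, a kinase (0.91), Por, the reductase of microsomal cytochromes (0.89), Epb4.1l4b (0.88), Sptbn1, a spectrin (0.87), Mettl7a2 (0.87) and Fam174b (0.87). Gsta3 stood at 74.5 ± 30.0 CPM after PG 1100 and 217 ± 37.0 CPM in saline lungs, and at 70.5 ± 8.17 CPM after VEA 12.5 and 243 ± 34.4 CPM in ethanol lungs. Cox8b, which is also on the list of adipocyte markers, stood at 3.10 ± 2.43 CPM after PG 1100 and 14.5 ± 5.57 CPM in saline lungs. The 5 genes near Asgr1 other than Pon1 had PG 826 log2 fold changes between -1.15 and -0.42, and the 6 those near Fabp1 between -0.06 and 0.14. Nearest in the deviations from group means were Spag7 (0.87), Aldh1a1 (0.80), Cox8b (0.80) and Gsto1 (0.79) to Asgr1, and Treml1 (0.78), Usp53 (0.77) and Ehmt1 (0.77) to Pon1. To Fabp1 they were Csnk1g2 (0.86), Pigb (0.86), Mocs1 (0.82) and Fpr2 (0.82).

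**Figure D5:**
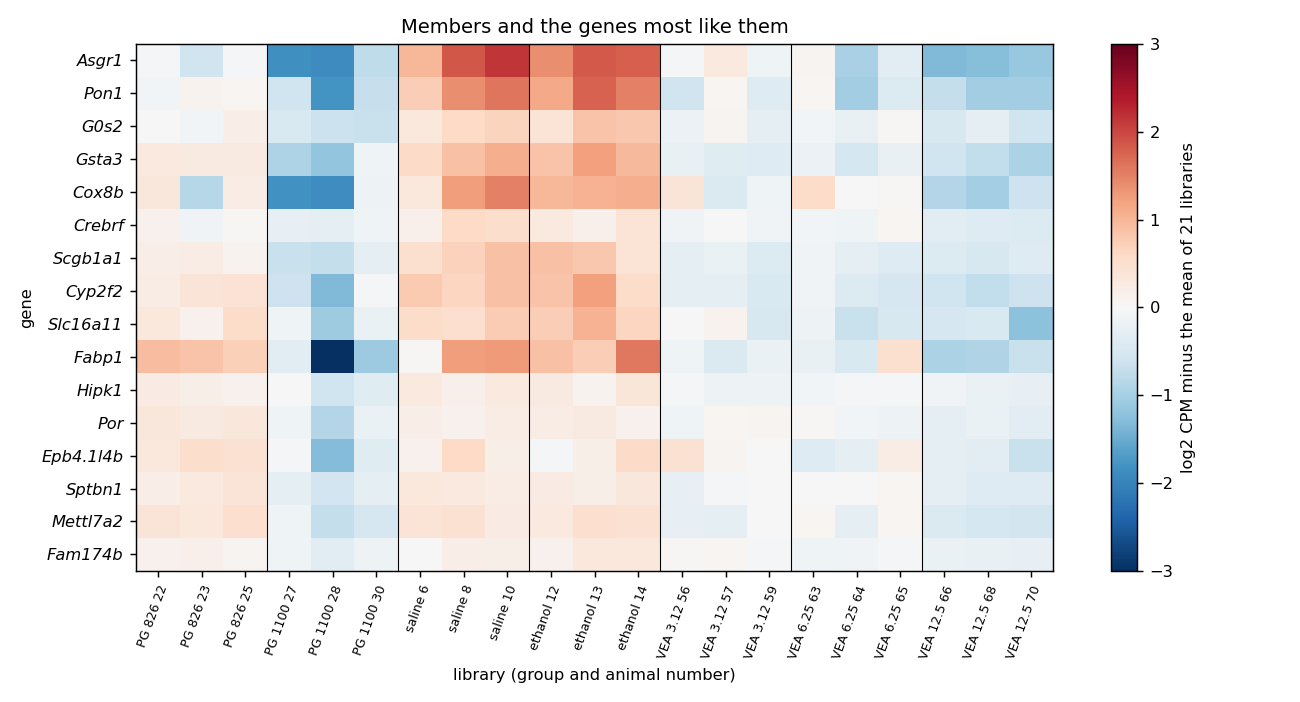
Log2 CPM minus the mean of 21 libraries (colour, clipped at -3 and 3) for Asgr1, Pon1, Fabp1 and the genes most like them (rows) in each library (columns, group and animal number). The PG 826 columns are near the mean for Asgr1 and Pon1 and above it for Fabp1, and the darkest cell is Fabp1 in PG 1100 animal 28, with 8 counts.

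Within 200 kb of Asgr1 lie 25 tested genes, of which edgeR called 0 for PG 826, 1 for PG 1100 and 3 for each VEA dose. Of all genes, 0.136% were called for PG 826, 7.31% for PG 1100, and 5.51%, 5.76% and 9.71% for the rising VEA doses. For PG 826, 2 had an unadjusted p below 0.05, as did 1395 of all 14727 genes, and DESeq2 and limma-voom called 0. The following were named after their values were seen. Slc16a11, a monocarboxylate transporter family gene 154.9 kb away that was also among the genes most like Pon1, fell after PG 1100 (-1.03 ± 0.22) and the rising VEA doses (-0.93 ± 0.22, -1.24 ± 0.23 and -1.52 ± 0.23). Mgl2, a galactose-type lectin of macrophages 72.4 kb away, rose after the VEA doses (1.08 ± 0.17, 1.10 ± 0.17 and 1.28 ± 0.17), as did Eif5a, a translation factor (0.48 ± 0.13, 0.51 ± 0.13 and 0.50 ± 0.13). Dlg4, the nearest tested gene at 6.6 kb, was not called. Within 200 kb of Pon1 lie 4 tested genes, and the only call was Ppp1r9a, 2.4 kb away, which fell by 0.65 after VEA 12.5. In the other comparisons edgeR called 0 beside Pon1, with 0, 1, 0 and 1 at an unadjusted p below 0.05 for PG 826, PG 1100, VEA 3.12 and VEA 6.25, where DESeq2 called 0, 0, 0 and 1 and limma-voom 0 in each. Within 200 kb of Fabp1 lie 7 tested genes, of which edgeR called 0 in every comparison. At an unadjusted p below 0.05 there were 0 for PG 826 and PG 1100, and 1, 2 and 1 for the rising VEA doses, and DESeq2 called 1, for VEA 6.25, and limma-voom 0. Of all 14727 genes, 2925 had such an unadjusted p for PG 1100, and 2792, 2749 and 3233 for the rising VEA doses.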

How the data were processed

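RNA from 21 mouse lungs was sequenced at transcript 3′ ends with a Lexogen QuantSeq kit from 500 ng of total RNA, per the labels' protocols. The deposited files hold whole-number counts per gene symbol, 1 file per library, and Bowtie2, bedtools and the assembly mm10 are named without versions in the submitters' processing notes. The annotation and strand setting used for counting are not given in the sources used here. Each file has 23282 rows, of which those with the same symbol (35 symbols) were added up, leaving 23238 symbols. The number of columns from other samples was 0.

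The 3 genes and all gene lists were chosen with earlier results of these data known. After filterByExpr by group (14727 symbols left) and TMM scaling, edgeR 4.0.16 in R 4.3.3 fitted a mean for every group by quasi-likelihood over all 21 libraries (14 residual degrees of freedom). Its biological coefficient of variation was 23.8%. Benjamini-Hochberg adjustment ran over all genes tested, and a gene was called below 0.05. An adjusted p without another name is edgeR's. The SE of a log2 fold change was derived from the F statistic. Nothing says that animals were independent beyond their numbers. The p-values rest on the spread between these samples, taken as independent, and may be too small if they were not. The prior count of log2 CPM was 2. Counting intervals cover counting error only.

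Named were the 3 genes, their closest family members, the 6 most alike genes over all libraries and 4 in the deviations, and up to 4 called members per list. Calls outside that rule were named where 5 or fewer. Some genes that the rule names are not reported here. Gene positions are from GENCODE M21 and promoter windows from RefSeq, both matched by symbol for all 3 genes. Other settings tried were DESeq2 1.42.0, limma-voom (limma 3.58.1), RLE size factors, no count filter, only the groups compared, removal of Rn45s and haemoglobin symbols, leaving out the 3 libraries with the fewest detected genes by an earlier look (saline 8, ethanol 13, VEA 65), leaving out each animal, and for the correlations a prior count of 0.5. The tools were tested on simulated data.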

Additional observations from a re-analysis of the deposited data

How the results depend on the processing

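In the 5 comparisons with a control, the 15 differences of Asgr1, Pon1 and Fabp1 were recomputed under 195 alternatives in all. Of these, 193 moved by less than the spread between animals and 2 by more. Those 2 are Fabp1 at PG 1100 without animal 27 (-2.85, leave-one-out range -2.85 to -1.64) and Asgr1 at PG 1100 without animal 30 (-3.74, range -3.74 to -2.98). The sign changed only for Fabp1 at PG 826, which overlapped saline and ran from -0.43 to 0.07. PG 1100 minus PG 826 for Fabp1 was -2.73 without PG 1100 animal 27.

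Counts of called genes depended more on the setting. For PG 826 the 20 called genes became 78 with DESeq2, 162 with no count filter and 6 without the 3 libraries with the fewest genes. Leaving out single animals gave 5 (without saline 8) to 120 (without saline 6), with 10 without saline 10, 12 without PG 23 and 11 without PG 25. Ethanol against saline had 0 calls with edgeR and limma-voom (892 at an unadjusted p below 0.05), 1 with DESeq2, 17 with no count filter, and 0 to 2 in leave-one-out fits. PG 1100 had 1077, with 444 when only its groups were in the fit and 547 (without animal 28) to 1207 in leave-one-out fits. VEA 3.12 had 812, with 539 without the 3 libraries and 434 (without animal 56) to 621 in leave-one-out fits, with 471 without animal 59, 536 without ethanol 12 and 449 without ethanol 13. VEA 6.25 had 849, with 316 without the 3 libraries and 427 (without animal 64) to 811, with 429 without animal 65 and 478 without ethanol 12 or 13. VEA 12.5 had 1430, with 873 (without animal 70) to 1090. The causes were not tested. Of 546 recomputed counts of called list members, 66 moved by over 1.5 times, all but 2 of them for counts of 4 or fewer. The 2 others are C-type lectins at PG 1100, 7 called against 11, without animal 28 or with only the groups compared.

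Within-group correlations in leave-one-out fits ran from 0.62 to 0.87 for Asgr1 with Pon1, 0.25 to 0.70 for Asgr1 with Fabp1, and 0.36 to 0.75 for Pon1 with Fabp1. Depth limits Fabp1 and Asgr1 most, with 8 and 16 counts in their lowest libraries. No paired analysis was possible because each animal number occurs in only 1 group.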
